A study of Homo sapiens with 6 samples.

Results

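MHC class I molecules display peptides from inside the cell to T cells, and 9 genes of this pathway were followed in LNCaP cells with and without PACT, among 29806 genes in the deposited counts. The genes were taken by NCBI Gene number from a list of named symbols, and all 9 were found. They encode the class I heavy chains *HLA-B*, *HLA-C* and *HLA-E*, the light chain *B2M*, the peptide transporter subunits *TAP1* and *TAP2*, the peptide editor *TAPBP* (tapasin) and the immunoproteasome subunits *PSMB8* and *PSMB9*. The 3 heavy chains are not all the class I chains of the genome, so their sum is not total class I mRNA.

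LNCaP is an androgen-responsive human prostate cancer cell line, and PACT, the product of *PRKRA*, is a protein that binds double-stranded RNA and activates the kinase PKR. The groups were 3 dishes of wild type LNCaP parental cells and 3 dishes of LNCaP PACT knockout (PACT KO) cells, all grown in RPMI-1640 with 10% FBS and harvested 48 h after plating at about 80% confluency. The PACT KO cells had been transfected with a plasmid for Cas9 and a guide to *PRKRA*, sorted by its GFP and grown from 1 colony, and no such steps are stated for the parental cells. A difference between the groups can therefore belong to the clone or to the loss of PACT, and the design cannot tell these apart.

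In the class I pathway, the proteasome cuts cytosolic proteins into peptides, and TAP carries the peptides into the endoplasmic reticulum. Tapasin and the chaperones calreticulin and ERp57 hold the heavy chain and B2M beside TAP until a peptide fits, and the loaded complex then goes to the cell surface. Interferon is known to raise most of these genes, to exchange the catalytic proteasome subunits for PSMB8, PSMB9 and PSMB10, and to act on class I promoters through the factor NLRC5 and members of the IRF and STAT families. Many tumours carry low levels of these mRNAs.

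The libraries held 19930060 to 24940838 reads on genes. *PRKRA* mRNA was at 34.97 to 38.8 CPM (counts per 1000000 reads, TMM-scaled) in the parental dishes and at 11.8 to 13.6 CPM in the knockout dishes, so it was lower but still detected. All 11 luminal prostate markers had more than 3 reads, summing to 4355 to 4380 CPM in the parental dishes and 4478 to 4550 CPM in the knockout dishes. *FOLH1* and *STEAP2* made up most of this sum and were called higher, while 6 of the 11 were called lower and the median log2 fold change of the list was -0.09. The androgen-regulated kallikreins *KLK3*, *KLK2* and *KLK4* had log2 fold changes of -2.50, -0.84 and -0.47, so luminal markers moved in both directions between the groups. All 10 leukocyte markers had at most 3 reads in every library, and 5 of them, *CD3E* among them, had 0. Of the 5 basal markers, 4 had at most 3 reads in every library. The sum of 6 fibroblast markers was 33.0 to 37.6 CPM in LNCaP parental and 44.6 to 50.1 CPM in PACT KO cells. Most of it came from *COL1A1*. *COL3A1* was at 6.35 ± 0.856 CPM in LNCaP parental and 5.96 ± 0.373 CPM in PACT KO cells (SD, n = 3). *COL1A2* was at 0, and *DCN*, *LUM* and *PDGFRA* had at most 6 reads. The sum of 5 endothelial markers was 24.7 to 27.4 CPM and 16.1 to 18.3 CPM, most of it from *VWF*. *EMCN* had 7 to 14 reads per library, *KDR* had at most 2, and *PECAM1* and *CDH5* were at 0. The part of these marker differences in the results was not tested.

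Of the 9 genes, 8 lie on chromosome 6 within 2.83 Mb and *B2M* lies on chromosome 15. In RefSeq (GRCh38.p14) the heavy chain genes lie at chr6:31353875-31357179 (*HLA-B*), chr6:31268749-31272092 (*HLA-C*) and chr6:30489509-30494194 (*HLA-E*), and *B2M* at chr15:44711517-44718145. The genes of peptide supply lie at chr6:32845209-32853704 (*TAP1*), chr6:32821831-32838739 (*TAP2*), chr6:33299694-33314078 (*TAPBP*), chr6:32840717-32844679 (*PSMB8*) and chr6:32854192-32859851 (*PSMB9*). The promoter windows of 5 genes are shown because they belong to *TAP1*, *TAP2* and *TAPBP*, which were called, to *PSMB9*, which starts next to *TAP1*, and to *B2M*, which was not called. Each runs 5′ to 3′ on the gene's strand, from 250 bases before to 50 bases after the RefSeq start (GRCh38.p14). *TAP1* (chr6:32853655-32853954, minus strand) and *PSMB9* (chr6:32853942-32854241, plus strand) are read in opposite directions from starts 488 bases apart, and their windows overlap by 13 bases. *TAP2* (chr6:32838690-32838989, minus strand) and *TAPBP* (chr6:33314029-33314328, minus strand) follow, and then *B2M* (chr15:44711267-44711566, plus strand). Capitals mark every match on either strand to an interferon-stimulated response element (ISRE, here GAAA, any 2 bases and GAAA), a Y box (CCAAT), a CRE core (TGACG) or a GC box (GGGCGG).
TAP1: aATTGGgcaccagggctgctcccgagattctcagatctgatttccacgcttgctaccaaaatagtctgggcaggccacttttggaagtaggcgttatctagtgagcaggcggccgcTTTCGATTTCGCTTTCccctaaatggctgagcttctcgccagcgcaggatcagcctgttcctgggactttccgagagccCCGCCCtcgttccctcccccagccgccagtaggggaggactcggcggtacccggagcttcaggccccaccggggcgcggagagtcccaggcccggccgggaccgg
PSMB9: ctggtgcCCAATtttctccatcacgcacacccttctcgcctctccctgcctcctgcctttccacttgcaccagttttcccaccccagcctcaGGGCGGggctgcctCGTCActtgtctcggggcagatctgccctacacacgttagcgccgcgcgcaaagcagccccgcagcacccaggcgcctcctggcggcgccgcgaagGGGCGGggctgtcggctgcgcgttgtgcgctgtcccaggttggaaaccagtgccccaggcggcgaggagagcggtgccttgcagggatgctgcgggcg
TAP2: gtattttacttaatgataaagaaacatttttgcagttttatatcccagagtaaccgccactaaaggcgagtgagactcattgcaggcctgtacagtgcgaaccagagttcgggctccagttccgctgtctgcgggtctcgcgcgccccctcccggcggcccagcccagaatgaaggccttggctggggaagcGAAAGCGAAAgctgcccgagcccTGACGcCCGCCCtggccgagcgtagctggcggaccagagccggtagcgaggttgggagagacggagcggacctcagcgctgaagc
TAPBP: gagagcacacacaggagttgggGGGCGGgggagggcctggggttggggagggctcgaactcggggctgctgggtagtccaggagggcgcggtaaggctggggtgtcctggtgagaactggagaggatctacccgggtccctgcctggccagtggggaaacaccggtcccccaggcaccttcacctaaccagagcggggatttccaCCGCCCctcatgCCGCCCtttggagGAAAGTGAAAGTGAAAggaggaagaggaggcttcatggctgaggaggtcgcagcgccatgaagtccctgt
B2M: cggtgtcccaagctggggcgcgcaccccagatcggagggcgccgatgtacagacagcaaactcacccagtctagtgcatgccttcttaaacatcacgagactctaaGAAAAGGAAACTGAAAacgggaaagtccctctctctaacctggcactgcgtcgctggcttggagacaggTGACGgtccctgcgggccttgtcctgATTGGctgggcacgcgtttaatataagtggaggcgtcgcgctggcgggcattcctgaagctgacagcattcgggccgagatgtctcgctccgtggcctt

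The ISRE, the element that interferon-activated factors bind, was present in 3.57% of the 35116 promoter windows of the RefSeq table. Windows were matched for 8 of the 9 members, all but *HLA-E*. *TAP1*, *TAPBP* and *B2M* each held 2 overlapping ISRE matches and *TAP2* held 1, while *HLA-B*, *HLA-C*, *PSMB8* and *PSMB9* held no match to these letters. The Y box was found in 34.6% of all windows, the CRE core in 24.6% and the GC box in 45.0%. The Y box matched 3 times in *HLA-B* and 4 times in *HLA-C*. These matches are letters in the reference and not measured binding.

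The 9 genes were at very different levels in LNCaP parental cells. Per kilobase of exon in GENCODE release 29 (RPKM computed from the TMM-scaled CPM), the order was *HLA-C* at 55.1 ± 0.327, *B2M* at 46.2 ± 0.585, *TAPBP* at 20.1 ± 1.08, *HLA-B* at 15.4 ± 0.574, *HLA-E* at 10.5 ± 0.764 and *TAP1* at 10.5 ± 0.252 (SD, n = 3 each). *TAP2* followed at 4.81 ± 0.404 RPKM. *HLA-E* and *TAP1* did not differ beyond their spread in this order. In PACT KO cells they stood apart, with *HLA-E* at 12.4 ± 0.393 RPKM and *TAP1* at 7.84 ± 0.163 RPKM. Far below came *PSMB9* at 0.272 ± 0.128 RPKM and *PSMB8* at 0.0662 ± 0.0204 RPKM, which rest on 2 to 10 reads per library over both groups. The 9 genes together held 0.0382% to 0.0394% of the reads in LNCaP parental dishes and 0.0392% to 0.0395% in PACT KO dishes.

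**Figure D1:**
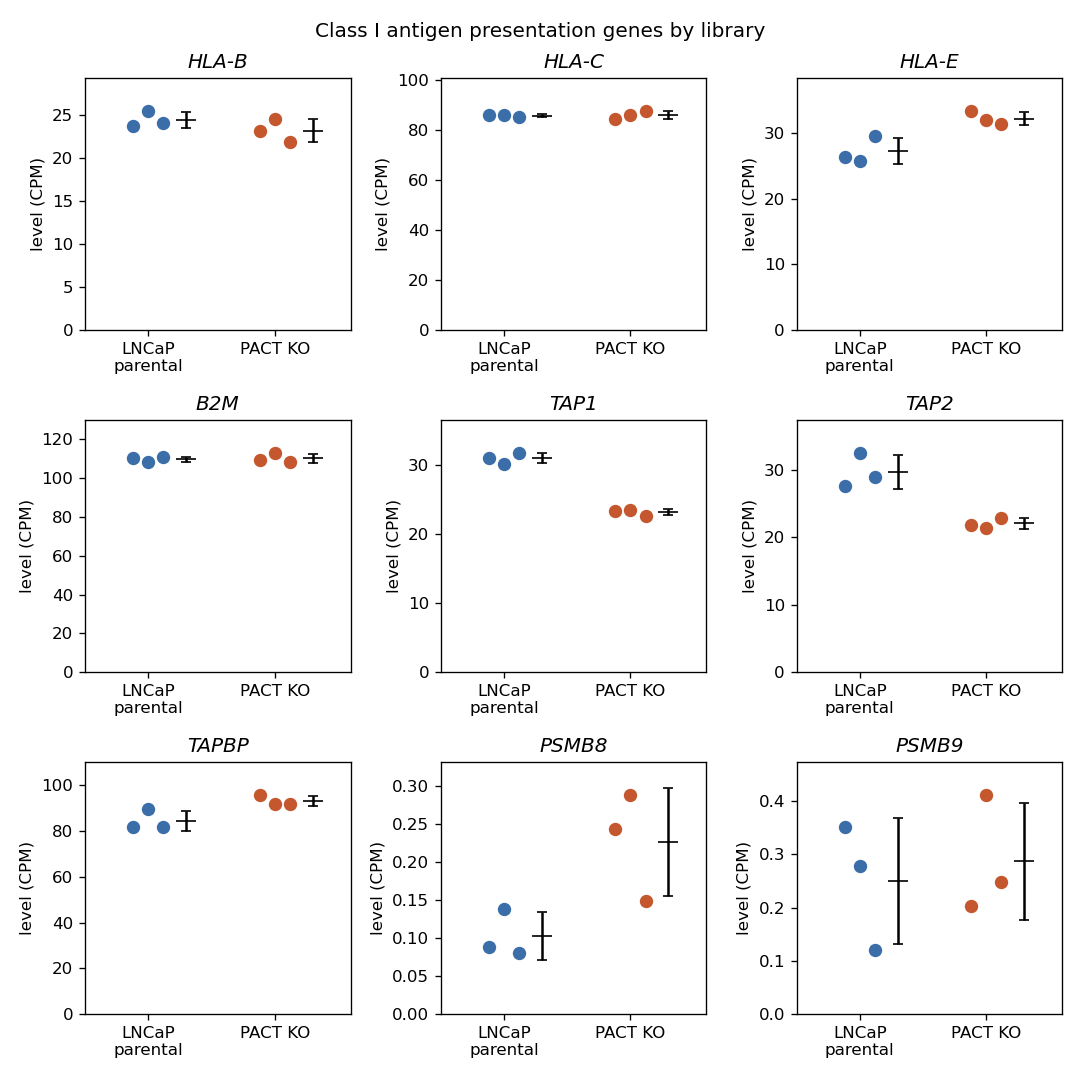
Level of each of the 9 genes in CPM (vertical axes, starting at 0) in every LNCaP parental (blue) and PACT KO (orange) dish, with the mean and SD of 3 dishes beside the points. *TAP1* and *TAP2* sit lower in all 3 PACT KO dishes, *HLA-E* and *TAPBP* sit higher, *HLA-B*, *HLA-C* and *B2M* overlap, and *PSMB8* and *PSMB9* stay under 0.5 CPM.

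To compare this pathway between the PACT KO clone and the parental line, edgeR's quasi-likelihood test was run on PACT KO against LNCaP parental dishes over 14462 genes. The log2 fold change of PACT KO over LNCaP parental (log2 FC) is given with its standard error (SE). A gene was called at an FDR (Benjamini-Hochberg adjusted p) under 0.01, and a DEG if its fold change was also at least 1.5. The class I genes split in both directions. Both transporter subunits fell, by close to 25%, *HLA-E* and *TAPBP* rose by smaller amounts, and *HLA-B*, *HLA-C* and *B2M* were not called. Reads sufficed to test 7 of the 9. Of these, 2 were called lower and 2 higher, where 18.8% of all genes tested were called lower and 15.3% higher. None of the 7 was a DEG in edgeR or in DESeq2, against 5.72% of all genes in edgeR. The 4 called members were also those with an unadjusted p under 0.05 in edgeR. The share of all genes at that threshold is not given. The median log2 fold change of the 7 was 0.0021 and that of all genes was 0.00044. With so few members, these counts are a description.

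Among the heavy chains, *HLA-C*, which presents peptides and is a ligand of natural killer cell receptors, was at 86.1, 85.8 and 85.1 CPM in the LNCaP parental dishes and at 84.3, 85.7 and 87.4 CPM in the PACT KO dishes. The dishes of the groups overlapped, and the log2 fold change was 0.0021 (SE = 0.03, FDR = 0.965, edgeR). The 95% interval of the change ran from -4.47% to 4.99%. *HLA-B*, the most polymorphic of the classical chains, was at 23.7, 25.4 and 24.02 CPM in LNCaP parental and at 23.2, 24.5 and 21.8 CPM in PACT KO dishes. Its groups also overlapped. Its log2 fold change was -0.07 (SE = 0.07, FDR = 0.391), with an interval from -13.1% to 4.26%, on 441 to 596 reads per library.

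*HLA-E*, the non-classical chain that shows leader peptides of other class I chains to the NKG2A receptor of natural killer cells, had a level of 26.4, 25.8 and 29.5 CPM in LNCaP parental and 33.4, 32.0 and 31.4 CPM in PACT KO dishes. Every PACT KO dish was above every LNCaP parental dish, which was also so, in one direction or the other, for 52.2% of all genes tested. The level rose from 27.3 ± 1.99 to 32.2 ± 1.02 CPM (SD, n = 3, log2 FC = 0.24, SE = 0.06, FDR = 7.74e-04, edgeR). Without LNCaP parental replicate 1 its FDR was 0.0126, and without replicate 2 it was 0.0172, with log2 fold changes of 0.22 and 0.20. Within each library, *HLA-B* made up 17.8% ± 0.685 of the reads of the 3 chains in LNCaP parental dishes and 16.4% ± 0.861 in PACT KO dishes (SD, n = 3; exact permutation test, 2-sided, p = 0.1, the smallest that 3 dishes against 3 allow).

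*B2M* encodes the light chain that every class I heavy chain needs to fold. It was at 110.5, 108.2 and 110.7 CPM in LNCaP parental dishes and at 109.4, 112.9 and 108.3 CPM in PACT KO dishes, so the groups overlapped. The log2 fold change was 0.0048 (SE = 0.03, FDR = 0.916, edgeR) and the interval of the change ran from -4.01% to 4.88%. With 2189 to 2745 reads per library, this is the narrowest interval of the 7 tested members.

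*TAP1*, a subunit of the ATP-driven transporter that moves peptides into the endoplasmic reticulum, was at 31.0, 30.3 and 31.7 CPM in LNCaP parental dishes and at 23.4, 23.6 and 22.7 CPM in PACT KO dishes. All 3 PACT KO dishes lay below all 3 LNCaP parental dishes. The mean fell from 31.0 ± 0.745 to 23.2 ± 0.483 CPM (SD, n = 3, log2 FC = -0.42, SE = 0.06, FDR = 1.79e-07, edgeR), a change of -25.1%. The other subunit, *TAP2*, had 27.7, 32.5 and 28.95 CPM in LNCaP parental and 21.9, 21.4 and 23.0 CPM in PACT KO dishes, again without overlap. Its mean fell from 29.7 ± 2.497 to 22.1 ± 0.787 CPM (log2 FC = -0.43, SE = 0.06, FDR = 7.57e-07), a change of -25.7%. The mean changes of the subunits were alike in size. The reads of *TAP1* per read of *TAP2*, a ratio chosen after the values were seen, restate this. They were 1.05 ± 0.103 in LNCaP parental and 1.05 ± 0.0585 in PACT KO cells. Dish by dish the ratio varied, as LNCaP parental replicate 2 had 0.93 against 1.12 and 1.10 in replicates 1 and 3. *TAP1* and *TAP2* each stayed called with each of the 6 libraries left out. Their log2 fold changes ran from -0.44 to -0.40 for *TAP1* and from -0.48 to -0.36 for *TAP2*.

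*TAPBP* encodes tapasin, which bridges TAP and the empty heavy chain and favours the binding of tight peptides. Its level was 81.9, 89.6 and 81.7 CPM in LNCaP parental dishes and 95.7, 91.9 and 91.8 CPM in PACT KO dishes, without overlap, though LNCaP parental replicate 2 came close to the PACT KO dishes. The log2 fold change was 0.14 (SE = 0.04, FDR = 0.00131, edgeR), a change of 10.5%. It was no longer called without LNCaP parental replicate 1 (FDR = 0.0148) or replicate 3 (FDR = 0.0141). *TAPBP* thus moved against both transporter subunits. Within a library, where the scaling between libraries plays no part, it had 2.64, 2.96 and 2.58 reads per read of *TAP1* in LNCaP parental dishes and 4.09, 3.90 and 4.05 in PACT KO dishes. This ratio was chosen after the values were seen, so it has no test.

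**Figure D2:**
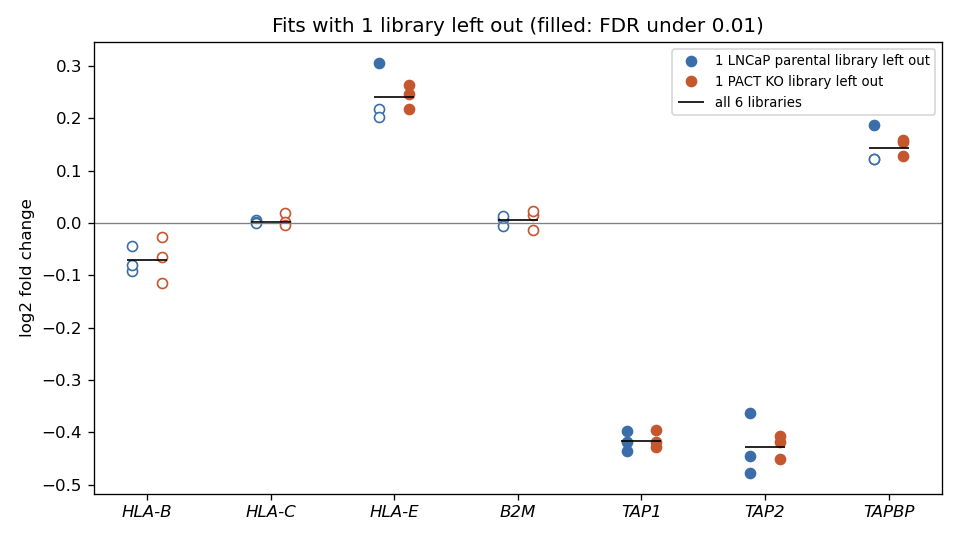
Log2 fold change (vertical axis) of the 7 tested members with all 6 libraries (black bar) and with 1 LNCaP parental (blue) or 1 PACT KO (orange) library left out. Filled points have an FDR under 0.01. *TAP1* and *TAP2* stay filled in all 6 fits, and the open points of *HLA-E* and *TAPBP* are those without single LNCaP parental libraries.

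The immunoproteasome subunits *PSMB8* and *PSMB9*, which change the cuts that the proteasome makes, were close to the floor of detection. *PSMB8* had 2, 3 and 2 reads in LNCaP parental dishes and 6, 7 and 3 in PACT KO dishes. Summed over dishes this is 7 against 16 reads, a ratio of 2.28 with a 95% counting interval of 0.888 to 6.56 that spans no change. *PSMB9* had 8, 6 and 3 reads against 5, 10 and 5, a ratio of 1.17 with an interval of 0.584 to 2.39. Both fell below the filter on low counts, and without that filter their FDR was 0.284 and 0.809 in edgeR. No change was called in either, and both intervals leave room for a fall or a rise. At this depth 3 reads stand for 0.120 to 0.151 CPM.

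Each immunoproteasome subunit replaces a constitutive one, so the pairs were compared within each library. *PSMB8* made up 0.0378% ± 0.0110 of the reads of *PSMB8* and *PSMB5* in LNCaP parental dishes and 0.0932% ± 0.0296 in PACT KO dishes, and *PSMB9* 0.165% ± 0.0752 and 0.207% ± 0.0771 of those of *PSMB9* and *PSMB6* (SD, n = 3). *PSMB10*, the third exchanged subunit, lies outside the MHC and was clearly present. It made up 10.9% ± 0.315 of the reads of *PSMB10* and *PSMB7* in LNCaP parental and 9.05% ± 0.263 in PACT KO cells. The groups did not overlap for *PSMB8* and *PSMB10* (exact permutation test, 2-sided, p = 0.1, adjusted p = 0.15 over the 3 pairs) and overlapped for *PSMB9* (exact permutation p = 0.6, adjusted p = 0.6). No pair could pass the threshold with 3 dishes against 3.

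**Figure D3:**
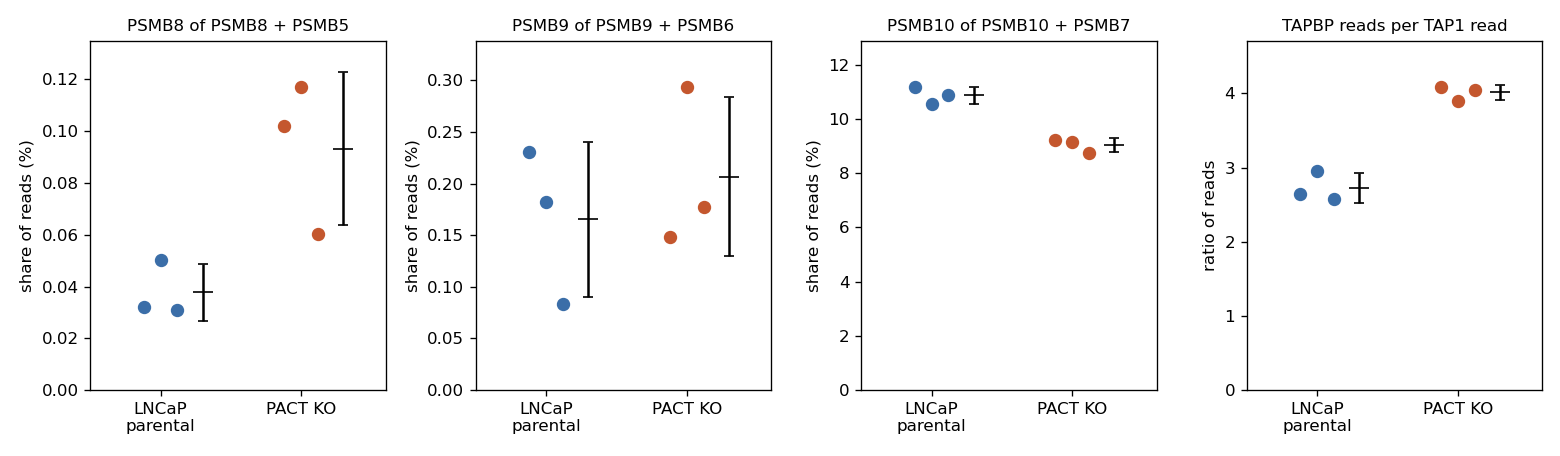
Reads of each immunoproteasome subunit as a percent of its pair with the constitutive subunit, and reads of *TAPBP* per read of *TAP1* (vertical axes, starting at 0), in every LNCaP parental (blue) and PACT KO (orange) dish, with mean and SD. *PSMB10* takes a share near 10%, while *PSMB8* and *PSMB9* stay under 0.3%, and the *TAPBP* to *TAP1* ratio is higher in all 3 PACT KO dishes.

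*TAP2*, *PSMB8*, *TAP1* and *PSMB9* are neighbours on chromosome 6, in this order and with no other protein-coding gene between them in RefSeq. In LNCaP parental cells *TAP1* was at 31.0 ± 0.745 CPM and *PSMB9*, which starts 488 bases away on the other strand, at 0.250 ± 0.118 CPM. The low and the high genes thus alternate along the chromosome. The noncoding *PSMB8-AS1* overlaps *PSMB8* and *TAP1* on the opposite strand and had 0 to 2 reads per library. Whether the counting used strand is not stated. Among 126 other tested genes that start between 28 and 34 Mb of chromosome 6, around the MHC, 14 (11.1%) were called higher and 22 (17.5%) lower, and their median log2 FC was -0.00023.

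Reads of class I genes can be hard to place, because the heavy chains are alike and differ between people. The read length is not given in the sources used here, so windows of 50 and of 100 bases of the GENCODE transcripts were used. They were searched for, on either strand, in the transcripts of all other annotated genes. This also counted any annotated gene that overlaps the searched gene at its own place. A share thus does not show by itself that a similar gene lies elsewhere. Of the 50-base windows, 27.3% of those of *HLA-B*, 6.17% of *HLA-C* and 5.76% of *HLA-E* occurred in another gene, and 1.73%, 3.42% and 1.10% in another of the 9 genes. Of the 100-base windows, the shares in another gene were 22.2%, 0.230% and 0.600%, and 0 occurred in another of the 9. For *TAP1* the shares in another gene were 15.0% at 50 bases and 12.3% at 100 bases, for *TAP2* 32.7% and 31.9%, and for *TAPBP* 5.82% and 0. *PSMB8* had 24.3% and 21.1%, *PSMB9* had 9.94% and 4.68%, and *B2M* had 0 at both lengths. For *PSMB9*, all of the shared windows at both lengths also occurred in another of the 9 genes. How the authors' counting treated reads from such windows is not given in the sources used here, and their part in the results was not tested.

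The other genes of the pathway were described from 8 lists that together held 103 genes in the counts, of which 86 were tested. In these, 25 genes (29.1%) were called higher and 9 (10.5%) lower, against 15.3% and 18.8% of all genes, and the median log2 fold change was 0.09. The shares of all genes are those of edgeR, and they are not given for DESeq2. DEGs numbered 4 higher, *HSPA5*, *ERAP2*, *SOCS3* and *IFIT2*, and 1 lower, *OAS3*, where 3.07% and 2.65% of all genes were DEGs in these directions.

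The list of peptide loading and trimming stood on one side, as 9 of 10 genes (90.0%) were called higher and 0 lower in edgeR. Of all genes, 15.3% were called higher and 18.8% lower. DESeq2 also called 9 higher and 0 lower. At an unadjusted p under 0.05, 0 were lower, and the median log2 fold change was 0.33. *HSPA5*, the chaperone BiP, rose from 781 ± 19.7 to 1338 ± 61.5 CPM (SD, n = 3, log2 FC = 0.78, SE = 0.03, FDR = 3.86e-23, edgeR). *PDIA3*, which encodes the ERp57 of the loading complex, rose from 699 ± 9.58 to 929 ± 34.2 CPM (log2 FC = 0.41, SE = 0.03). The lectin chaperones *CANX* and *CALR*, which hold the heavy chain before and after it binds B2M, had log2 fold changes of 0.26 (SE = 0.02) and 0.24 (SE = 0.03). Most of these chaperones fold many proteins besides class I chains.

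*ERAP2*, an aminopeptidase that trims peptides to the length that class I binds, rose from 1.14 ± 0.377 to 2.55 ± 0.674 CPM (log2 FC = 1.13, SE = 0.22, FDR = 5.24e-05, edgeR). Its reads numbered 16, 29 and 34 in LNCaP parental and 56, 50 and 67 in PACT KO dishes. The related *ERAP1* and the tapasin homologue *TAPBPL*, named outside the fixed rule after their values were seen, had log2 fold changes of 0.38 (SE = 0.05, FDR = 1.72e-07) and 0.44 (SE = 0.09, FDR = 1.73e-04). *SEC61A1*, the channel of the endoplasmic reticulum, was the 1 gene of the 10 that was not called (log2 FC = 0.04, SE = 0.03).

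In the proteasome list, 0 of 8 genes were called higher, 4 were called lower and 4 were not called in edgeR. The shares of all genes were 15.3% higher and 18.8% lower. DESeq2 also called 0 higher and 4 lower. At an unadjusted p under 0.05, 0 were higher, and the median log2 fold change was -0.11. With 8 genes, these counts are a description. *PSMB10* fell from 16.5 ± 0.509 to 12.6 ± 0.102 CPM (log2 FC = -0.39, SE = 0.08, FDR = 1.19e-04, edgeR), close in size to the falls of *TAP1* and *TAP2*. *POMP*, the assembly chaperone of the proteasome, fell from 57.5 ± 0.937 to 48.5 ± 0.638 CPM (log2 FC = -0.24, SE = 0.04). The constitutive subunits *PSMB5* and *PSMB6* were called lower at -0.16 (SE = 0.03) and -0.12 (SE = 0.03), and *PSMB7* was not called (log2 FC = -0.09, SE = 0.03, FDR = 0.0115). The activator genes *PSME1* and *PSME2*, named outside the rule, had log2 fold changes of 0.0021 and -0.05 with FDRs of 0.965 and 0.272.

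**Figure D4:**
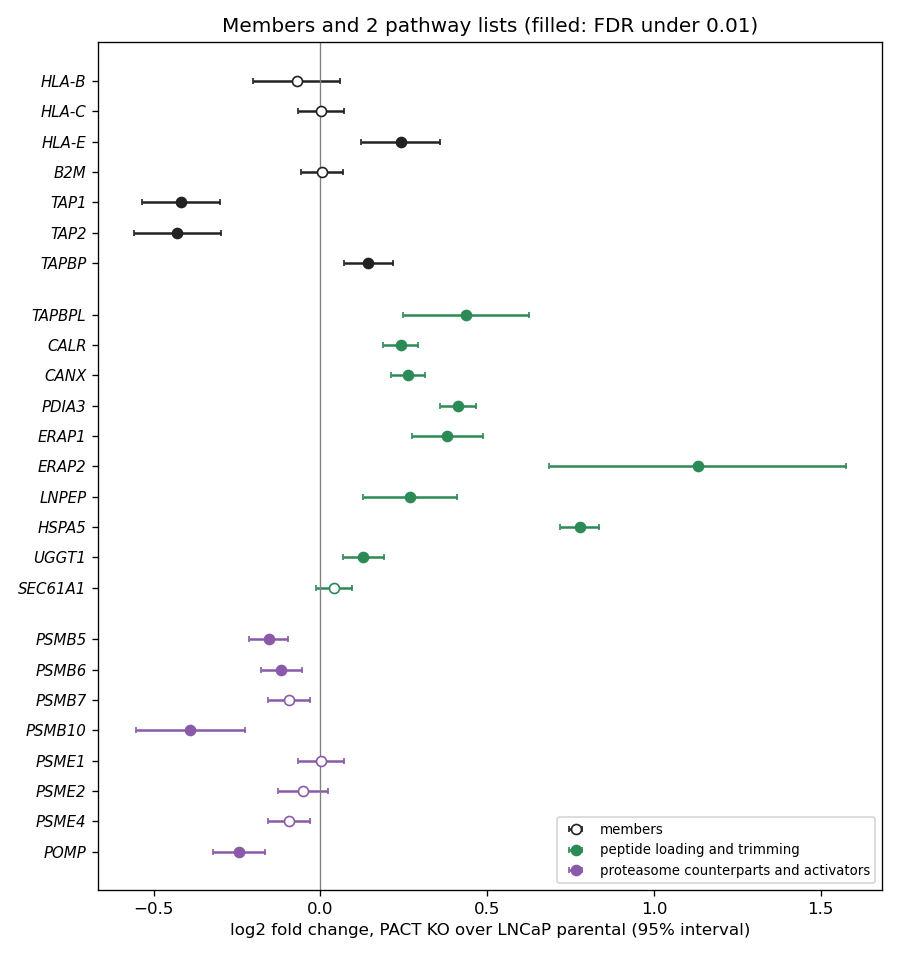
Log2 fold change of PACT KO over LNCaP parental cells (horizontal axis) with its 95% interval for the 7 tested members (black), 10 genes of peptide loading and trimming (green) and 8 genes of the proteasome (purple). Filled points have an FDR under 0.01. The points of the loading genes lie to the right of 0, with the interval of *SEC61A1* crossing it, and *TAP1*, *TAP2* and *PSMB10* lie near -0.4.

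Among 16 tested transcription factors of class I genes, 4 were called higher and 2 lower in edgeR, against 15.3% and 18.8% of all genes. DESeq2 called 1 higher and 1 lower. With 16 genes, these counts are a description. *STAT2*, which carries the interferon signal to the nucleus, rose from 112 ± 4.05 to 136.5 ± 2.67 CPM (log2 FC = 0.28, SE = 0.03, FDR = 2.18e-09, edgeR). *NFYB*, a subunit of the factor that binds the Y box, was called higher at 0.17 (SE = 0.04). *IRF1* and *CREB1*, named outside the rule, were also called higher. Their log2 fold changes were 0.43 (SE = 0.13, FDR = 0.00511) and 0.14 (SE = 0.04, FDR = 0.00287). The NF-κB subunits *NFKB1* and *RELA*, which bind the enhancer A of class I promoters, were called lower at -0.14 (SE = 0.04) and -0.12 (SE = 0.03). *NLRC5*, the transactivator of class I genes and named outside the rule, was at 3.30 ± 0.279 CPM in LNCaP parental and 3.24 ± 0.336 CPM in PACT KO cells (log2 FC = -0.01, SE = 0.14, FDR = 0.945). *CIITA*, its counterpart for class II, had 0 reads in every library.

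Of 10 interferon receptor and kinase genes, 4 (40.0%) were called higher and 0 lower in edgeR, against 15.3% and 18.8% of all genes. DESeq2 called 3 higher and 0 lower. At an unadjusted p under 0.05 in edgeR, 1 was lower. The kinases *JAK2* (log2 FC = 0.22, SE = 0.05) and *JAK1* (log2 FC = 0.29, SE = 0.09) and the interferon gamma receptor chain *IFNGR2* (log2 FC = 0.17, SE = 0.04) rose. *SOCS3*, an inhibitor of cytokine signalling, rose from 0.599 ± 0.137 to 1.51 ± 0.0936 CPM (log2 FC = 1.34, SE = 0.27, FDR = 8.49e-05, edgeR), on 11 to 40 reads per library. Of 15 tested interferon-induced genes, 4 (26.7%) were called higher and 1 (6.67%) lower in edgeR, against 15.3% and 18.8% of all genes. DESeq2 called 2 higher and 1 lower. *IFIT2* rose from 4.68 ± 0.405 to 7.28 ± 0.958 CPM (log2 FC = 0.63, SE = 0.12), and *IFI44* and *IFI6* had log2 fold changes of 0.53 (SE = 0.11) and 0.42 (SE = 0.12). *OAS3* fell from 22.5 ± 0.758 to 14.3 ± 0.436 CPM (log2 FC = -0.65, SE = 0.07, FDR = 1.85e-09). The median log2 fold change of the 15 interferon-induced genes was 0.15. Whether their changes are tied to the *TAP1* and *TAP2* falls was not tested.

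Of 12 tested genes of class I traffic and turnover, 3 were called higher and 2 lower in edgeR, and 2 and 2 in DESeq2. The edgeR shares of all genes were 15.3% higher and 18.8% lower. *SEC24D*, a cargo receptor of vesicles that leave the endoplasmic reticulum, rose from 27.5 ± 1.36 to 40.8 ± 1.16 CPM (log2 FC = 0.57, SE = 0.05, FDR = 1.16e-11, edgeR). *BCAP31*, an export receptor for class I, fell by 0.25 on the log2 scale (SE = 0.03), and the ubiquitin ligase *SYVN1* fell by 0.27 (SE = 0.05). The autophagy receptor *NBR1* rose (log2 FC = 0.13, SE = 0.03).

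Of 15 other class I and class I-like genes, 11 were tested. None was called in edgeR, where 34.2% of all genes were called, or in DESeq2. At an unadjusted p under 0.05, 1 was higher and 1 lower. *HLA-G* had at most 3 reads in every library. Among class II genes, which antigen-presenting cells use, 4 of 10 had enough reads to be tested. Of these 4, 1 was called, where 34.2% of all genes were called. *HLA-DQB1* rose from 15.1 ± 0.740 to 21.3 ± 0.730 CPM (log2 FC = 0.49, SE = 0.07, FDR = 7.92e-07). *HLA-DRA*, below the filter and named outside the rule, had 2, 2 and 5 reads in LNCaP parental and 19, 21 and 8 reads in PACT KO dishes, and *CD74*, the class II invariant chain, had at most 2 reads in every library.

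*TAP1* was the member with the smallest p, and the genes whose log2 CPM followed it most closely over the 6 libraries were *TMX2*, *TUBGCP3* and *HSPA4*, each with a Pearson r of 0.999. The 6 libraries fall into 2 groups and share their depth and scaling, so r takes in the gap between the groups, and it was not computed within a group. Their log2 fold changes were -0.21 (SE = 0.03), -0.25 (SE = 0.07) and -0.24 (SE = 0.03). In bulk RNA, fewer cells with a transcript and less transcript per cell cannot be told apart for any of these genes.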

How the data were processed

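PolyA RNA of 6 dishes was sequenced on an Illumina NovaSeq. The authors deposited read counts per NCBI Gene number, not normalized. The submitters' processing notes list bcl2fastq 2.20.0.422, STAR 2.5.3a, StringTie 1.3.3, featureCounts 1.5.3 and hg38, but the settings, annotation and strand use are not given in the sources used here. A row without a gene number (0.0688% to 0.0708% of counts) was left out. Symbols from RefSeq (GRCh38.p14) and GENCODE release 29 matched 27561 of 29806 gene numbers.

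Genes passing filterByExpr were scaled by TMM and tested with glmQLFit and glmQLFTest in edgeR 4.0.16 (R 4.3.3), 2-sided, without a block. The FDR threshold of 0.01 and the 1.5-fold limit follow the study's methods. The standard error is the absolute log2 fold change divided by the square root of F. RPKM divide CPM by the union of exons of GENCODE's basic transcripts. Intervals of summed reads are exact conditional ones and cover counting error only. The alternatives tried were limma-voom (limma 3.58.1), DESeq2 1.42.0, the exact test and the likelihood ratio test of edgeR, 3 scalings, 2 filters, 2 call rules, the replicate number as a block and each library left out. Read ratios and plots used Python 3.11.15, scipy 1.17.1 and matplotlib 3.10.9.

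On simulated counts of this comparison (14340 genes tested), the test recovered 83 of 100 genes changed 1.5-fold and 95 of 100 changed 2-fold, with 1 false call. Every simulated gene had the same spread between dishes beyond counting noise, and no changed gene was changed by less than 1.5-fold. All called members changed by less than 1.5-fold, so these rates do not cover them. The replicate dishes differed by more than sampling noise (variance ratio 1.55 to 3.56, where noise alone gives 1). They came from parallel platings, so p-values measure the spread between dishes only.

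The 9 members and the lists were chosen with earlier results of these data known. By rule, the text names every member, the DEGs and at most 4 called genes of smallest p from each pathway list, the constitutive proteasome counterparts, and the 3 genes most correlated with the member of smallest p.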

Additional observations from a re-analysis of the deposited data

How the results depend on the processing

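The 2 members called lower, *TAP1* and *TAP2*, numbered 2 under each other test, scaling and filter, with the replicate block and in each of the 6 fits with 1 library left out (2 to 2). The 2 called higher numbered 0 to 2 with 1 library left out (0 without LNCaP parental replicate 1, and 1 without replicate 2 or replicate 3), and 2 under the other tests, scalings and filters. With a fold change of at least 1.5 also required, the members called were 0 higher and 0 lower, and the pathway genes were 4 higher and 1 lower, where FDR alone gave 25 and 9. With 1 library left out, 22 to 27 pathway genes were called higher and 6 to 9 lower. DESeq2 called 18 higher and 8 lower. With the replicate number as a block, 2 members were called higher and 2 lower, and 27 pathway genes higher and 9 lower. The numbers do not pair the dishes, since the deviations of same-numbered dishes had correlations of -0.0938, 0.00285 and -0.0862, and the block changed the call of no member. Other scalings shifted the median of all genes by at most 0.0292 on the log2 scale. The difference in the *PSMB9* share of its pair was 0.0413 percentage points and turned to -0.00245 without PACT KO replicate 2. With 1 library left out, the difference ran from -0.00245 to 0.0739 points for *PSMB9*, from 0.0435 to 0.0720 for *PSMB8*, from -1.99 to -1.68 for *PSMB10* and from -1.78 to -0.923 for the *HLA-B* share. Depth limits *PSMB8* and *PSMB9* most, at 10 reads or fewer per library.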
